A study of Mus musculus with 16 samples.

Results

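Mouse lung fibroblasts labelled as lacking ST2 were compared with wild-type lung fibroblasts, whatever virus they had received, and the account turns on the genes whose 4 knockout (KO) values all lay above or all lay below their 4 wild-type (WT) values. Of 54331 genes in the deposited table, 15527 had a mean of at least 10 normalized counts over the 8 libraries, and 3188 of these separated the genotypes without overlap. The 8 libraries came from primary lung fibroblasts with the strain label C57BL/6, each infected with an adenovirus and taken for RNA 72 h later. KO and WT each had 2 libraries with a virus that codes for nothing (AdV-NULL), 1 with a virus coding for full-length mouse IL-33 (AdV-FLIL33) and 1 with a virus coding for mature mouse IL-33 (AdV-MIL33). All 8 therefore shared adenovirus infection, and no uninfected cells entered. KO stands below for the libraries labelled as ST2 knockout, and the libraries are called NULL 1, NULL 2, FL and M. Values of single libraries are given in that order. The labels tie a copy of the table with equal values to the 8 samples of unseparated lung cells, which were not analysed here, but its column names match the titles of fibroblast samples. The cell type therefore rests on those names. Whether each library of a genotype had its own culture or its own animal is not said in the sources used here. Spread between libraries, which is what the p-values measure, may therefore be technical. FL and M were fitted as the 2 samples of IL-33, so this spread also holds any difference between these viruses. Genotype and any difference between the mice or cultures that gave the cells cannot be told apart.

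ST2, the product of Il1rl1, is the receptor through which extracellular IL-33 signals, by way of MyD88, IRAK kinases and TRAF6, to NF-kB and MAP kinases. Full-length IL-33 also lodges in the nucleus, bound to chromatin, whereas the mature form lacks the part that holds it there. Lung fibroblasts make collagen and elastin, respond to TGF-beta by building actin stress fibres, and sense viral nucleic acids through receptors that switch on interferon and its target genes.

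The libraries held between 23912931 (WT M) and 29174452 (KO FL) normalized counts in all. Of the fibroblast markers, Col1a1 had 278106 to 294453 normalized counts in KO libraries and 217130 to 381061 in WT libraries, and Pdgfra had 1905 to 2298 in KO and 1695 to 1952 in WT. Lum had 1233 to 1629 in KO and 839 to 1056 in 3 WT libraries, but 90.6 in WT M. Tcf21 had 325 to 413 in KO and 216 to 405 in the same 3, but 85.6 in WT M. WT M stood apart from the other 7, and the median range within a genotype, over all tested genes, was 0.25 on the log2 scale in KO libraries and 0.56 in WT libraries, or 0.25 in the 3 WT libraries without it. Its macrophage markers summed to 55123 normalized counts, against at most 24655 in the other WT libraries and 25931 to 28872 in KO libraries. Results are therefore given with and without it. Of the targeted gene Il1rl1 (GRCm38 chr1:40429570-40465415), KO libraries held 73.1, 69.2, 79.2 and 85.2 normalized counts and WT libraries 18.3, 106, 33.9 and 70.7. The groups overlapped, the log2 difference was 0.70 ± 0.53 (SE), and the adjusted p was 0.4372. No source used here says which exons the allele removes, so a count over the whole gene does not check the label. Il33 reached 1080221 normalized counts in KO FL and 81110 in KO M, against 593840 in WT FL and 248956 in WT M. With the NULL virus it had 214 to 216 in KO libraries and 193 to 201 in WT libraries.

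Of the 15527 genes, 1791 (11.5%) were higher and 1397 (9%) lower in KO without overlap. Most of these gaps were narrow: the median distance between the nearest KO and WT libraries was 0.12 on the log2 scale for the higher genes and -0.13 for the lower ones. The gap reached 1.5-fold at 196 higher and 148 lower genes, 2-fold at 89 and 56, and 4-fold at 23 and 7. A linear model (limma) on log2(normalized count + 1), averaged over NULL and IL-33 viruses with Benjamini-Hochberg adjustment over all tested genes, called 1065 genes higher (6.86%) and 788 lower (5.08%) in KO. Of the non-overlapping genes 973 higher (6.27% of all tested) and 685 lower (4.41%) were called, while 92 higher and 103 lower genes were called although a library crossed over. Non-overlap and the model read the same values, so one is no independent support for the other. At least 2-fold differences were seen at 290 of the called higher and 229 of the called lower genes. The median log2 difference over all tested genes was 0.00.

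WT M lay at the edge of the WT range more often than the other WT libraries. It was the WT library nearest to the KO libraries at 544 (30.4%) of the higher and 452 (32.4%) of the lower genes, and the farthest at 814 (45.4%) and 597 (42.7%). Without WT M the non-overlapping genes numbered 6396, and the model called 6161 genes, among them all 1853 called with every library. Without WT FL the model called 5944. Leaving out a library of the other 6 left fewer calls: 595 without KO FL, 644 without KO M, 552 without KO NULL 1, 552 without KO NULL 2, 596 without WT NULL 1 and 643 without WT NULL 2. These calls were nearly all among the 1853, for example 545 of the 552 without KO NULL 1.

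On the high side the widest gap was that of Hormad1, and genes of several kinds followed. Hormad1 (chr3:95559677-95587671), a meiotic chromosome axis protein of germ cells, had 1276, 1344, 1428 and 1434 normalized counts in KO libraries, against 0.811, 0, 2.15 and 0 in WT libraries. It was in effect present in every KO library and listed at or near 0 in every WT library, with the lowest KO library 405-fold above the highest WT library on the value + 1 scale. Epyc, a small leucine-rich proteoglycan best known from cartilage, had 126, 119, 94.3 and 110 in KO libraries and 4.28, 3, 5.69 and 2.14 in WT libraries (log2 difference 4.62 ± 0.30, adjusted p = 0.000517). The 4 KO libraries lay together, and the gap was 14.3-fold.

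Mstn, which encodes the TGF-beta family ligand myostatin, had 72.1, 74.2, 105 and 153 in KO libraries and 4.01, 9.7, 7.49 and 6.04 in WT libraries. Its gap was 6.83-fold, and in KO the IL-33 libraries were above the NULL libraries. Dpt, encoding the matrix protein dermatopontin, was 11.1-fold higher on average in KO, with 313, 288, 416 and 334 against 39.4, 47.4, 46 and 8.05 in WT. WT M was the lowest WT library. Zhx2, a zinc finger and homeobox repressor, had 647, 700, 667 and 623 in KO libraries and 54.7, 62.9, 144 and 58.7 in WT libraries, WT FL being the highest of these. Kif24, a kinesin of the centriole, had 416 to 446 in KO and 36.5 to 69.8 in WT. Its gap was 5.89-fold.

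Igfbp5, a binding protein for insulin-like growth factors, had 1131, 1043, 1558 and 1271 in KO libraries against 191, 195, 303 and 277 in WT libraries, a log2 difference of 2.38 ± 0.09 (adjusted p = 8.90e-05). In both genotypes the IL-33 libraries were the higher ones. Npnt, encoding the integrin ligand nephronectin, had 5405, 5624, 7034 and 6024 in KO libraries and 1712, 1632, 1121 and 812 in WT libraries. Here the IL-33 libraries were above the NULL libraries in KO and below them in WT. The ErbB ligand Btc had 388 to 435 in KO and 84.6 to 125 in WT. Nr4a1, an orphan nuclear receptor and immediate early gene, had 1667, 1780, 2125 and 2003 in KO libraries and 554, 509, 476 and 442 in WT libraries (log2 difference 1.93 ± 0.07, adjusted p = 5.25e-05). Zfp965, Nptx2, Cux2 and Greb1 were also among the widest gaps, at of 3.63- to 6.24-fold. Of the genes named here on the high side, Cux2 lost its call when a library was left out: its adjusted p reached 0.1085, and it was above 0.05 without any 1 of the 6 libraries other than WT FL and WT M. Zfp965 belongs to a family of near-identical zinc finger genes, so its estimated count is uncertain.

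**Figure D1:**
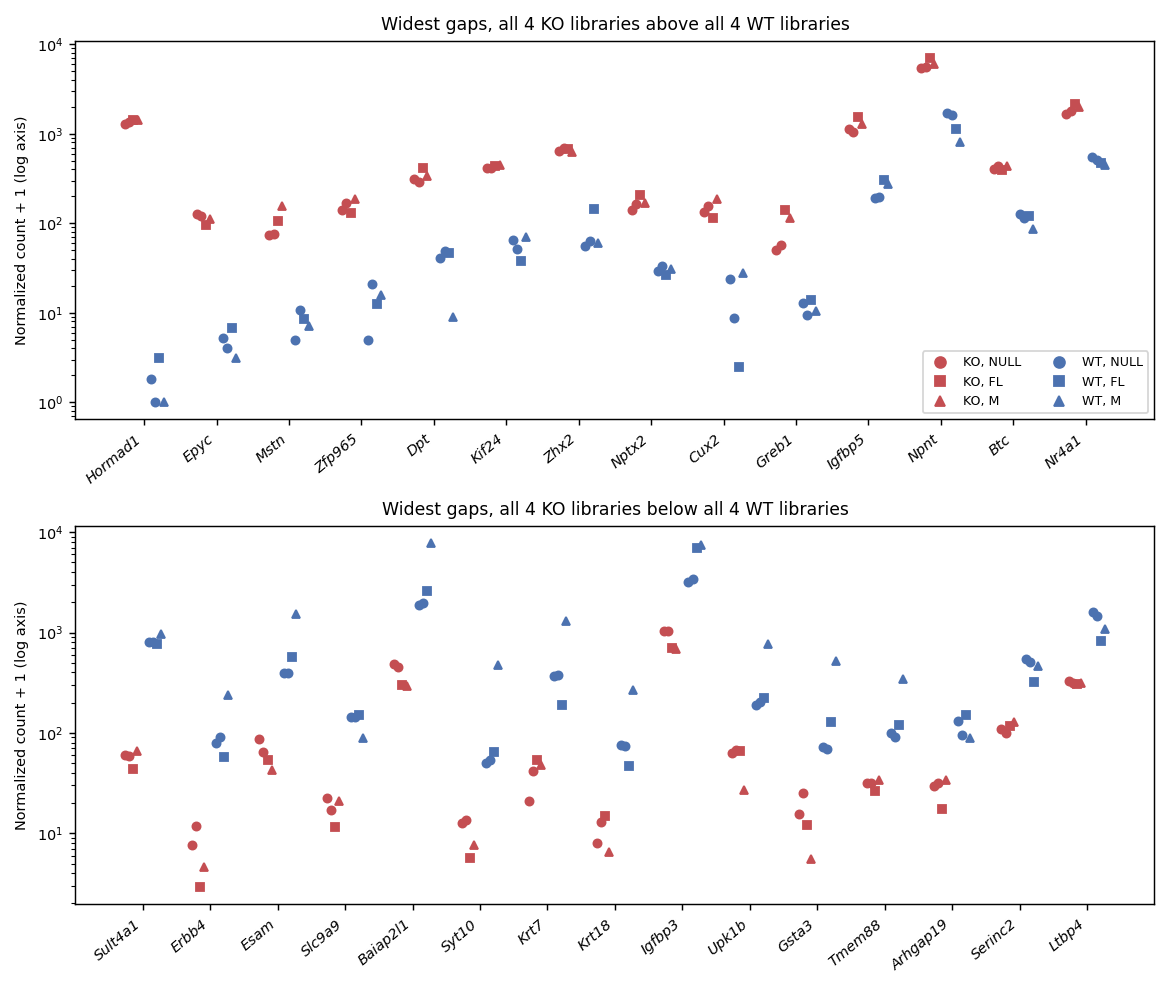
Normalized count + 1 (log axis) in each library for genes with the widest gaps in each direction, 14 higher and 15 lower in KO, KO in red to the left of WT in blue, with circles for NULL, squares for FL and triangles for M. Hormad1 runs from 1276 to 1434 in KO and from 0 to 2.15 in WT, and Sult4a1 from 42.3 to 65.3 in KO and from 773 to 962 in WT.

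On the low side the widest gap among called genes with a mean of at least 50, predicted genes and clones left out as on the high side, was that of Sult4a1 (chr15:84076097-84105754), a sulfotransferase family member known mainly from brain. It had 58.7, 57.3, 42.3 and 65.3 normalized counts in KO libraries against 808, 804, 773 and 962 in WT libraries, and the mean log2 difference was -3.89 ± 0.16 (adjusted p = 9.48e-05). All 4 libraries of each genotype lay close together. Igfbp3, another binding protein for insulin-like growth factors, had 1036, 1031, 701 and 683 in KO libraries and 3157, 3380, 6917 and 7452 in WT libraries. The IL-33 libraries were lower than the NULL libraries in KO and higher in WT, and this opposite movement is taken up with the viruses below.

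Erbb4, a receptor tyrosine kinase for neuregulins and betacellulin, had 6.68, 10.7, 1.9 and 3.61 in KO libraries and 78.4, 89, 56.4 and 238 in WT libraries. Ltbp4, a latent TGF-beta binding protein needed for elastic fibres, had 331, 315, 309 and 312 in KO and 1593, 1456, 817 and 1081 in WT, so that even the lowest WT library was 2.47-fold above the highest KO library. Slc9a9, an endosomal sodium-proton exchanger, had 10.5 to 21.3 in KO and 87.6 to 151 in WT, and Serinc2 had 98.3 to 128 in KO and 321 to 547 in WT. Their gaps were 3.98-fold and 2.5-fold. Gsta3 and Arhgap19 were also low in every KO library, with 4.51 to 24.3 and 16.4 to 33.3 in KO against 67.5 to 515 and 87.2 to 150 in WT.

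The remaining 7 of the 15 widest gaps on the low side were those of Esam, Baiap2l1, Syt10, Krt7, Krt18, Upk1b and Tmem88. In each of the 7 the highest library was WT M. It was also the highest at Sult4a1, Igfbp3, Erbb4 and Gsta3, with 515 at Gsta3 against 67.5 to 127 in the other WT libraries. Esam, an adhesion molecule of endothelium and pericytes, had 86.1, 63.4, 52.6 and 41.3 in KO libraries and 390, 398, 574 and 1542 in WT libraries. Baiap2l1, an actin-bundling adaptor, had 487, 457, 297 and 290 in KO and 1869, 1976, 2580 and 7791 in WT. The keratin gene Krt7 had 19.8 to 52.2 in KO and 189 to 1291 in WT. The calls of Krt7, Krt18, Upk1b, Tmem88 and Syt10 were lost when any of 5 or 6 libraries was left out (adjusted p up to 0.0834), but never without WT M.

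Genes switched on by interferon were higher in KO. Of 38 tested genes of an interferon-response list, which was written with earlier results of these data known and is no independent evidence of its direction, 26 were higher in KO without overlap and none was lower, against 11.5% and 9% of all tested genes. The model called 29 higher and 0 lower, and the median log2 difference over the 38 was 0.80, against 0.00 over all genes. Leaving out single libraries gave 20 to 36 calls and 26 to 31 non-overlapping members. Without WT M these were 34 and 29. Irf9 and Ifi35 did not overlap but were not called.

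Among sensors and regulators, Zbp1, a receptor for Z-form nucleic acids, had 1650, 1665, 1222 and 1423 normalized counts in KO libraries and 149, 128, 527 and 635 in WT libraries. WT IL-33 libraries lay well above WT NULL libraries, yet below every KO library, by 1.92-fold at the nearest. Irf7, the transcription factor that amplifies type I interferon, had 6642, 6448, 4559 and 5535 in KO against 999, 1056, 2159 and 2874 in WT (log2 difference 1.84 ± 0.11, adjusted p = 0.000316). Trim30a, a regulator of innate signalling, had 1150 to 1577 in KO and 154 to 729 in WT.

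Among effectors, Oas1a, an enzyme that makes the 2-5A activator of RNase L, had 1106, 1137, 882 and 963 in KO libraries and 170, 196, 443 and 596 in WT libraries. Bst2, which tethers budding virions to the cell surface, had 18884, 18799, 16521 and 17535 in KO and 7817, 8102, 11847 and 9535 in WT. Both showed the same arrangement, with WT FL and WT M between WT NULL and KO. Ly6e, a surface protein induced by interferon, had 12046, 11889, 10306 and 10907 in KO against 2379, 2370, 5790 and 6267 in WT (log2 difference 1.57 ± 0.05, adjusted p = 5.25e-05). Ifit1, which binds RNA lacking a methylated cap, was closer, with 4104, 4212, 2836 and 3481 in KO and 1675, 1759, 2552 and 1736 in WT. Isg15, a ubiquitin-like modifier, had 8015, 7754, 5998 and 6917 in KO and 3965, 4051, 5630 and 3915 in WT, and its call was lost without either KO NULL library, either WT NULL library or KO M (adjusted p up to 0.0701).

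The interferon-inducible GTPases, which attack pathogen-containing vacuoles, moved the same way: of 13 tested, 8 were called higher and 0 lower, against 6.86% and 5.08% of all tested genes, and 5 were higher without overlap, against 11.5%. Gbp2 had 3227, 3242, 2719 and 2843 in KO libraries against 1175, 1250, 1408 and 1442 in WT libraries, and Irgm1 had 8460 to 9961 in KO against 4948 to 5844 in WT. Leaving out 1 library gave 6 to 10 calls. Iigp1 was lower in KO with the IL-33 viruses, at 235 and 268 in KO FL and KO M against 401 and 445 in WT FL and WT M (log2 difference -0.75, adjusted p = 0.0280), and the class I-like gene Cd1d1 was as well, at 20.5 and 29.2 against 67 and 102 (adjusted p = 0.0389). Of 21 tested genes of MHC class I presentation, which displays peptides from inside the cell to CD8 T cells, 13 were called higher, 0 lower, and 12 did not overlap. H2-D1 had 12275, 12801, 11798 and 12306 in KO and 5407, 5609, 7767 and 9199 in WT. H2-K1 had 8308 to 9403 in KO and 3920 to 6570 in WT, and B2m, the shared light chain, had 27830 to 29232 in KO and 17605 to 22268 in WT. The class I count fell to 8 without any 1 of the 6 libraries other than WT FL and WT M, and was 17 without WT FL and 19 without WT M. Near-identical class I and Gbp genes share reads, so their estimated counts are uncertain one by one.

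**Figure D2:**
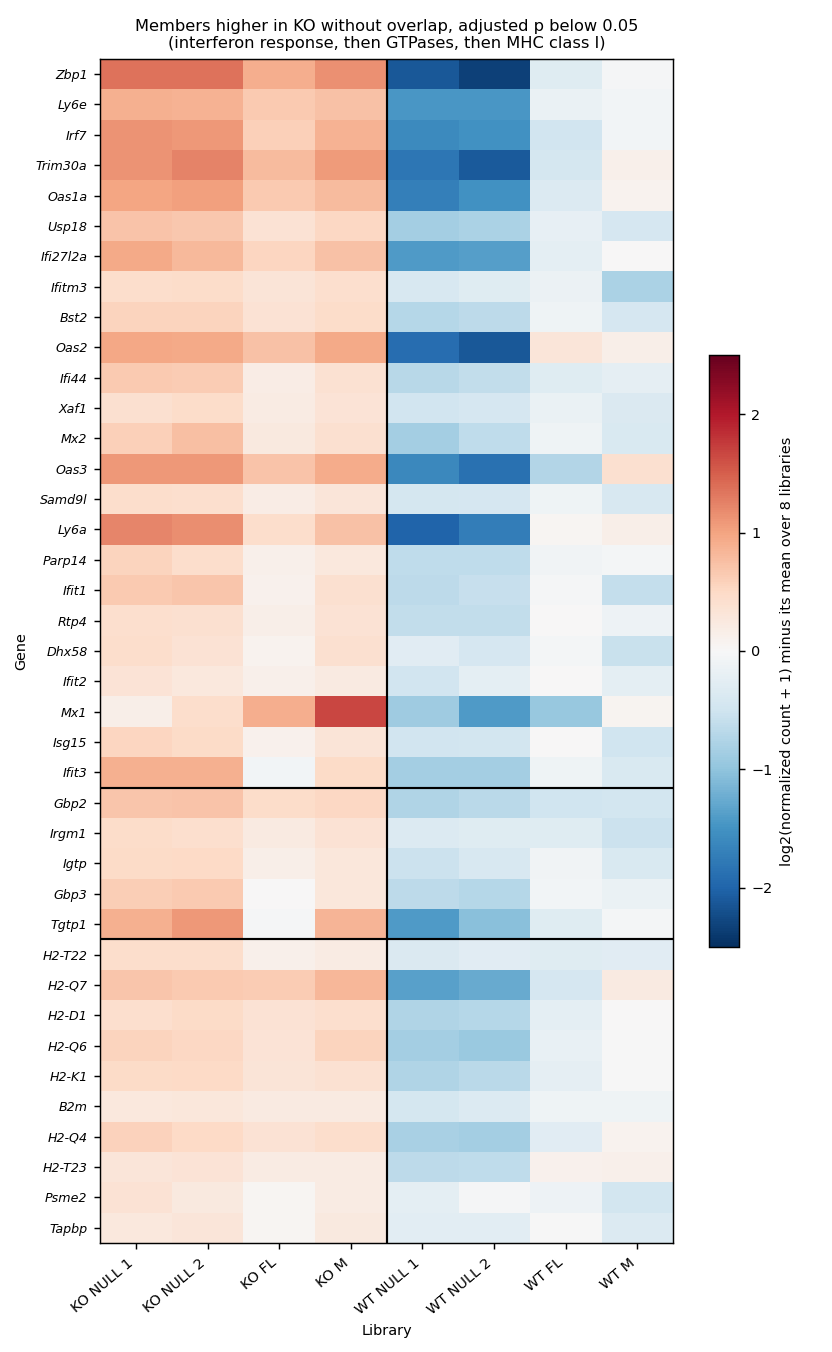
Deviation of log2(normalized count + 1) from its mean over the 8 libraries (colour) for the 39 called members of the interferon, GTPase and MHC class I lists whose values did not overlap, with the 4 KO libraries left of the 4 WT libraries. KO deviations run from -0.06 to 1.67 and WT deviations from -2.33 to 0.39.

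Because these genes moved together, the stretches just upstream of their start sites were searched for GAAA followed by any 2 bases and GAAA again, the core of the interferon-stimulated response element to which ISGF3 and IRF factors bind. RefSeq promoter windows (GRCm38.p6, 250 bases before to 50 after a start) were matched by symbol for 11132 of the 15515 tested symbols, and both strands were read. The core was found at 14 of 26 interferon-list genes with a window, at 9 of 9 GTPase genes and at 5 of 17 class I genes. Members higher without overlap held it at 8 of 15, 5 of 5 and 3 of 11, shares near those of the whole lists. Over all tested genes with a window the share was 3.84%, and over all 32851 windows 3.44%. Of the genes higher in KO without overlap, 77 of 1323 held it (5.82%), and of those lower without overlap, 24 of 1020 (2.35%). The 77 include the members of these lists that were higher without overlap and held it. A match is a description of letters and shows no binding. The stretches of 7 called members, with values given above, are printed 5′ to 3′ on the gene's strand, with the core in capitals (TTTC, any 2 bases and TTTC where it lies on the other strand), to show where it stands before the start and at which genes it occurs more than once.
Oas1a: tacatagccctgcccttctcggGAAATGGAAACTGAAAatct
Isg15: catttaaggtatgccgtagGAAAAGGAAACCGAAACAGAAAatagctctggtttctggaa
Ifit1: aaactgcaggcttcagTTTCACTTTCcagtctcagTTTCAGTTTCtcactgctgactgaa
Bst2: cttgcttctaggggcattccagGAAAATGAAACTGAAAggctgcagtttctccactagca
Gbp2: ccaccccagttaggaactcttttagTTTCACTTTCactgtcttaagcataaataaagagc
Irgm1: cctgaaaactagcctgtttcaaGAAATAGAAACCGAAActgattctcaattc
B2m: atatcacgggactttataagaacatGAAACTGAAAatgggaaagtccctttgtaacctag

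These stretches lie at chr5:120907526-120907567 (Oas1a, minus strand), chr4:156200856-156200915 (Isg15, minus), chr19:34640769-34640828 (Ifit1, plus), chr8:71537565-71537624 (Bst2, minus), chr3:142620579-142620638 (Gbp2, plus), chr11:48871421-48871472 (Irgm1, minus) and chr2:122147523-122147582 (B2m, plus). Gbp2 and B2m hold 1 match each. Isg15 holds 3 overlapping matches, the nearest starting 66 bases before the gene's start. Oas1a, Irgm1 and Bst2 each hold 2 overlapping matches and Ifit1 holds 2 separate ones. Irf7, Xaf1 and H2-D1, which were higher without overlap as well, held no match in their windows.

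Other inflammatory genes were mixed. Of 24 NF-kB dependent cytokine and chemokine genes, 3 (12.5%) were called higher (Il6, Csf1 and Nfkb2) and 1 (4.17%) lower (Vcam1). Over all tested genes these shares were 6.86% and 5.08%. Il6 had 1053, 1041, 966 and 960 normalized counts in KO libraries against 456, 454, 541 and 615 in WT libraries, and Csf1, the growth factor of macrophages, had 83878 to 86646 in KO against 53454 to 57940 in WT. Both calls held without any 1 library, while Nfkb2 was lost without any of 6 libraries and Vcam1 without any of 5 (adjusted p up to 0.1538). Without WT M the list had 13 members called higher and 3 lower, and without WT FL 6 higher and 14 lower. The chemokine Ccl5 had 257, 245, 175 and 233 in KO and 30.2, 27.8, 59.2 and 107 in WT. Of 19 complement genes 5 (26.3%) were called higher, against 6.86% of all tested genes, while the median log2 difference of the list was 0.02. Among them were the alternative pathway factor Cfb, with 421 to 612 in KO and 31.5 to 222 in WT, and C4b, with 551 to 948 in KO and 113 to 324 in WT. The only member called lower was Masp1 (5.26% of the list, against 5.08% of all tested genes). Serping1 and C1ra lost their calls without any 1 of the 6 libraries other than WT FL and WT M (adjusted p up to 0.1000), and Masp1 without KO NULL 1, KO FL or WT NULL 2. The complement count fell to 3 without any 1 of the 6 libraries other than WT FL and WT M, and was 8 without WT FL, where 9 were lower, and 9 without WT M, where 2 were lower.

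The contractile apparatus was higher in KO. Of 16 tested genes, 12 were higher without overlap and 1, Des, was lower, against 11.5% and 9% of all tested genes. The model called 8 higher and 1 lower, against 6.86% and 5.08% of all tested genes. Acta2, smooth muscle actin and the usual marker of myofibroblasts, had 329997, 333169, 329631 and 332959 normalized counts in KO libraries and 253622, 247831, 187885 and 137159 in WT libraries. The KO libraries were level with each other, and the WT libraries fell apart by virus, with WT M the lowest. The mean was 331439 ± 1884 in KO and 206624 ± 55025 in WT (SD, n = 4 each), and the log2 difference was 0.72 ± 0.13 (adjusted p = 0.0173). Actg2, another smooth muscle actin, had 46173, 46672, 48332 and 50129 in KO against 24856, 25058, 18067 and 11725 in WT. Mylk, myosin light chain kinase, had 23087 to 24312 in KO and 4543 to 14226 in WT, and Cnn1, calponin, had 40372 to 42522 in KO and 18483 to 27547 in WT. Desmin, encoded by Des, had 2906 to 3446 in KO and 6661 to 21916 in WT, with WT M the highest.

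Actg2, Mylk and Cnn1 kept their calls without any 1 library. Acta2, Tpm1, Smtn, Tagln, Vcl and Des each lost theirs without any 1 of the 6 libraries other than WT FL and WT M (adjusted p up to 0.1549), and the list then had 3 members called higher. It had 14 without WT FL and 13 without WT M. The 2 cytoplasmic actins Actb and Actg1 were higher as well, but narrowly: Actb had 155922 to 178965 in KO against 98417 to 146572 in WT, and their calls were lost without the same 6 libraries (adjusted p up to 0.1792).

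**Figure D3:**
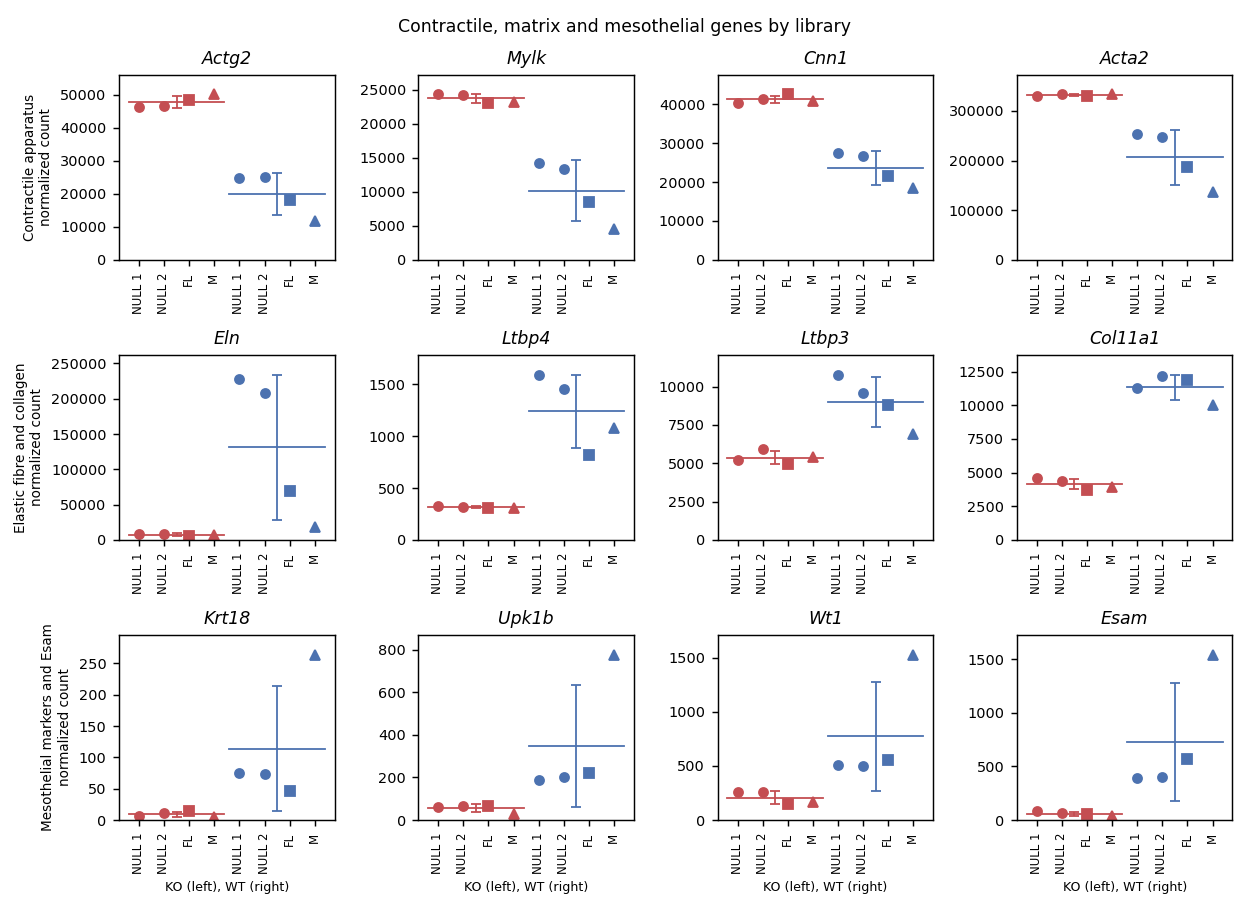
Normalized counts by library for 12 genes, with KO libraries (red) left of WT libraries (blue) in each panel, lines at the group means and bars of 1 SD. The top row shows contractile genes, all higher in KO, the middle row elastic fibre and collagen genes, all lower in KO, and the bottom row mesothelial markers and Esam, lower in KO and highest in WT M.

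Some genes of the TGF-beta pathway, some Hippo pathway targets and some immediate early genes were higher in KO too. Tgfb3, a TGF-beta ligand, had 33303, 33894, 33790 and 34798 normalized counts in KO libraries and 21496, 20932, 11170 and 12037 in WT. Of the 20 tested genes of the TGF-beta pathway 3 were called, all higher (15%, against 6.86% of all tested genes). Tgfb3 and Tgfbr3 were among them, and the median log2 difference of the list was 0.06. The call of Tgfbr3 was lost without either KO NULL library, KO FL or WT NULL 2, and 1 member of the list was called without KO NULL 2. The list had 7 members called higher and 6 lower without WT FL, and 6 higher and 7 lower without WT M.

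Of 15 Hippo pathway targets and regulators, 6 (40%) were called higher and 2 (13.3%) lower, against 6.86% and 5.08% of all tested genes. Axl, a receptor tyrosine kinase and YAP target, had 38419 to 40963 in KO and 23023 to 26203 in WT. Yap1 itself, the transcriptional coactivator, had 8546 to 8743 in KO and 5678 to 7084 in WT, and Ankrd1 and Ccn1, both YAP targets, had 16193 to 18454 and 29569 to 31591 in KO against 7307 to 13484 and 15740 to 28831 in WT. Ptpn14 and Wwtr1 were the members called lower. Axl alone kept its call without any 1 library; the count of higher members was 1 without any KO library or WT NULL 1, 2 without WT NULL 2, and 10 without WT FL or without WT M. Of 22 immediate early genes 8 were called higher (36.4%, against 6.86% of all tested genes) and 0 lower. The 8 were Nr4a1, Nr4a2, Nr4a3, Klf2, Klf4, Klf6, Fosl2 and Egr2. Nr4a3 had 244, 208, 271 and 271 in KO libraries and 93.2, 96.3, 97.5 and 95.1 in WT libraries. Klf6 had 7769 to 8072 in KO and 5382 to 5897 in WT. All except Fosl2 and Egr2 kept their calls without any 1 library, and the list had 15 called higher and 2 lower without WT M, and 9 and 8 without WT FL.

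Matrix genes differed in both directions. Over all tested genes 6.86% were called higher and 5.08% lower. Elastin had the largest difference in normalized counts among the called genes lower without overlap: Eln had 9082, 9151, 5323 and 7088 in KO libraries against 228091, 208660, 68999 and 18425 in WT libraries. In WT the NULL libraries lay far above WT M, while in KO all 4 libraries were low, 2.01-fold below WT M at the nearest. The log2 difference was -3.56 ± 0.38 (adjusted p = 0.0027). Ltbp3, a partner of latent TGF-beta, had 4955 to 5910 in KO and 6876 to 10783 in WT. With Ltbp4 and Fbn2, these made 4 of 22 elastic fibre genes called lower and 0 higher; Fbn2 lost its call without either KO NULL library, KO FL or WT NULL 2 (adjusted p up to 0.1025). The list had 8 called lower and 10 higher without WT FL, and 17 lower and 4 higher without WT M.

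Of 28 collagen chains, 6 were called lower (Col11a1, Col8a2, Col4a5, Col5a3, Col4a1 and Col4a2) and 2 higher (Col28a1 and Col15a1). These were 21.4% and 7.14% of the list, against 5.08% and 6.86% of all tested genes. Col11a1, a fibril-nucleating chain, had 4577, 4348, 3727 and 3935 in KO libraries and 11278, 12178, 11850 and 9998 in WT libraries. Every KO library was below every WT library by more than 2-fold. Col4a1 and Col4a2, the main chains of basement membrane collagen, had 80773 to 87833 and 58021 to 60467 in KO against 98447 to 119883 and 63798 to 85307 in WT. Col11a1, Col8a2 and Col4a5 kept their calls without any 1 library, and the others lost theirs without any of the 6 libraries other than WT FL and WT M (adjusted p up to 0.1660). The counts were then 3 lower and 0 higher. They were 11 lower and 13 higher without WT FL, and 13 lower and 6 higher without WT M, so the lean of the list to lower chains rests on which library is kept.

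Of 24 basement membrane and adhesive glycoproteins 6 (25%) were called higher and 1 (4.17%), Lama5, lower, against 6.86% and 5.08% of all tested genes. However, 14 of the 24 differences were negative and the median log2 difference was -0.08. Lama4, the laminin alpha chain of mesenchymal and vascular cells, had 3826, 4089, 4261 and 3919 in KO libraries and 824, 847, 1724 and 1302 in WT libraries. Lama5, the alpha chain of epithelial basement membranes, had 2285, 2338, 1958 and 2052 in KO and 7508, 7795, 5313 and 3983 in WT. The laminin alpha chains thus differed in opposite directions, each without overlap. Nid2, a nidogen that links laminin to collagen, had 9719 to 11138 in KO and 1562 to 3832 in WT. The count of higher members was 3 without any 1 of the 6 libraries other than WT FL and WT M, and 11, with 7 lower, without WT FL. Without WT M it was 7, with 13 lower.

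Growth factor pathways had called members in both directions. Over all tested genes 6.86% were called higher and 5.08% lower. Among 30 genes of the BMP and activin pathway, 6 (20%) were called higher and 4 (13.3%) lower, with a median log2 difference of -0.18. The higher ones included the ligands Mstn, Gdf10 and Inhba, the activin antagonist Fst and the receptor Bmpr1b, which had 1041 to 1137 in KO and 536 to 747 in WT. The lower ones were Bmp1, Bmp6, Id2 and Smad6. Leaving out any 1 of the 6 libraries other than WT FL and WT M gave 4 higher and 2 lower, while 7 higher and 18 lower were called without WT M, and 8 and 11 without WT FL. Of 16 IGF pathway genes, Igfbp5 and Igfbp4 were called higher (12.5%) and Igfbp3, Igf2bp3 and Igf2r lower (18.8%). Binding proteins for the same ligands thus differed in opposite directions. Igf2r lost its call without KO NULL 2 or KO M, and Igf2bp3 without any of the 4 NULL libraries (adjusted p up to 0.1418). The list had 8 called lower without WT M, 7 without WT FL and 1 without KO NULL 2.

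Of 20 Notch and hedgehog genes 5 (25%) were called lower, against 5.08% of all tested genes, namely Gas1, Gli3, Heyl, Dll4 and Jag1. Ptch1 was called higher (5%, against 6.86%). Gas1, a surface co-receptor for hedgehog, had 426, 427, 320 and 323 in KO libraries and 790, 841, 1139 and 1232 in WT libraries. With IL-33 viruses it was lower in KO and higher in WT than with NULL. Heyl, a Notch target, had 6.18 to 17.8 in KO and 37.8 to 137 in WT, and the ligand Dll4 had 0.913 to 5.98 in KO and 7.12 to 36.6 in WT. Gas1 alone kept its call without any 1 library. The count of lower members was 1 without either KO NULL library or WT NULL 1, 2 without KO FL or WT NULL 2, 8 without WT FL and 12 without WT M. Of 31 Wnt pathway genes 2 (6.45%) were called in each direction, near the 6.86% higher and 5.08% lower of all tested genes. Among them was the receptor Fzd6, with 629 to 811 in KO and 950 to 1776 in WT. Without WT M 4 were called higher and 14 lower, and without WT FL 12 and 11.

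The mitochondrial genome was low in KO. Of the 13 respiratory chain genes it encodes, 10 were lower without overlap, against 9% of all tested genes. Of the same 13, 6 were called lower, against 5.08%, and 0 higher. Of 34 nuclear genes of the respiratory chain none was called. Among these, 2 (5.88%) did not overlap in each direction, against 11.5% higher and 9% lower over all tested genes. The model gave 2 to 13 calls for the mitochondrial genes when 1 library was left out, with 12 without WT M and 13 without WT FL, and 2 or 3 without any 1 of the others. The mt-Nd5 subunit of complex I had 14324, 13146, 12889 and 13276 normalized counts in KO libraries and 20008, 20649, 16738 and 17068 in WT libraries (log2 difference -0.47 ± 0.06, adjusted p = 0.0044). The list summed to 248311 to 281568 in KO and to 300460 to 338916 in WT. Mitochondrial transcripts are also a usual measure of RNA and cell quality, and the part of quality in this difference was not tested.

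More lysosomal genes were lower than higher, with 11 of 22 lower and 4 higher without overlap, and 8 called lower and 1 higher, against 9% and 11.5% of all tested genes without overlap and 5.08% and 6.86% called. Ctsl, the protease cathepsin L, had 18770, 19695, 19279 and 18744 in KO libraries against 32384, 34165, 31639 and 30474 in WT libraries, a log2 difference of -0.75 ± 0.06 (adjusted p = 0.000973) whose call held without any 1 library. Gaa, the lysosomal glucosidase, had 5401 to 5938 in KO and 7291 to 7634 in WT, and the cholesterol transporter Npc1 had 1358 to 1481 in KO and 1821 to 2069 in WT. The count of lower members was 3 or 4 without any 1 of the 6 libraries other than WT FL and WT M, 13 without WT FL (5 higher) and 11 without WT M (4 higher). Of 27 glycolysis and hypoxia genes 6 were called higher and 1 lower, with a median log2 difference of 0.07, and 6 were higher and 3 lower without overlap. Slc2a1, the glucose transporter GLUT1, had 6812 to 7390 in KO and 4491 to 5362 in WT, and hexokinase Hk2 had 2821 to 2959 in KO and 1623 to 2496 in WT. These kept their calls without any 1 library, the count then being 2, while Adm, Hk1, Ldha, Egln3 and Gpi1 lost theirs (adjusted p up to 0.2022). Without WT FL 13 were called higher and 4 lower, and without WT M 10 and 8.

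Cholesterol synthesis had 3 of 24 members called higher, Insig1 and Cyp51 among them, and 1 lower (Dhcr7), all lost without any 1 of the 6 libraries other than WT FL and WT M (adjusted p up to 0.1608). Without WT FL 12 were called higher and 1 lower, and without WT M 6 and 6. The sterol response element TCACNCCAC, read on both strands, was found at 1 of the 16 cholesterol genes with a window and at 1.37% of tested genes with one. The cholesterol calls made 12.5% of that list higher and 4.17% lower, against 6.86% and 5.08% of all tested genes. Retinoid, prostaglandin and steroid genes had 3 called higher and 4 lower of 21. These became 0 or 1 higher and 1 lower without any 1 of the 6 libraries other than WT FL and WT M. Unfolded protein response genes had 3 called higher and 2 lower of 24, NRF2 targets 1 and 2 of 27, and heat shock proteins 3 and 0 of 20. Slc7a11, the cystine transporter, had 827 to 957 in KO and 365 to 637 in WT, and the mTORC1 inhibitor Ddit4 had 1162 to 1284 in KO and 1538 to 2273 in WT. Both held without any 1 library. Heat shock genes called higher numbered 0 without WT NULL 1 and 1 without either KO NULL library, against 13, with 2 lower, without WT M. Shmt2 and Trib3 lost their calls without any 1 of the 6 libraries other than WT FL and WT M, and Psat1 without KO NULL 1 (adjusted p up to 0.1779).

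Few cell cycle genes were called, but the mitosis genes leaned lower. The mitotic cyclin Ccnb1 had 281, 241, 321 and 323 in KO libraries and 500, 483, 405 and 408 in WT libraries. With Ccnb2 and Top2a it made 3 of 24 mitosis genes called lower (12.5%), against 1 higher (Anln, 4.17%). Over all tested genes these shares were 5.08% and 6.86%. Of the 24 differences 22 were negative, with a median log2 difference of -0.26. The lower count was 10 without WT M and 13 without WT FL, and 1 without KO M or WT NULL 2. Of 24 S phase genes 1 was called (Cdc6, higher), but 14 were called higher and 1 lower without WT M, and 3 higher and 10 lower without WT FL. No gene was called among 12 replication-dependent histones, 28 ribosomal protein genes or 8 sex chromosome genes, although 18 of the ribosomal protein genes were called lower without WT M.

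**Figure D4:**
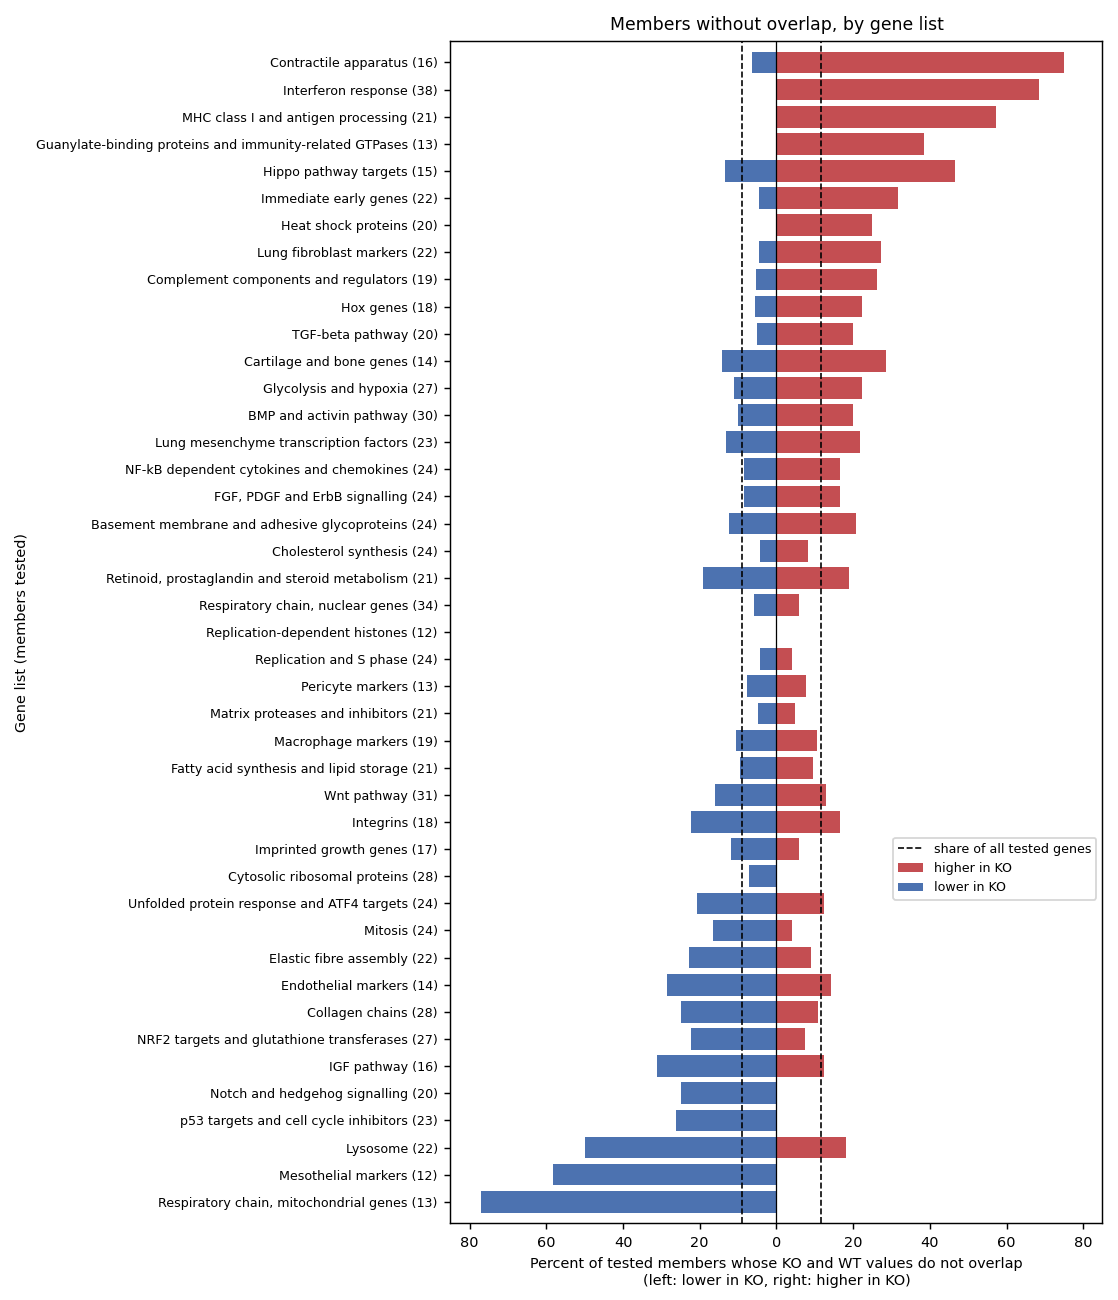
Percent of the tested members of each gene list with at least 12 tested members whose KO and WT values do not overlap, with members lower in KO to the left and higher in KO to the right. Dashed lines mark the shares of all tested genes, 9% lower and 11.5% higher. The contractile list reaches 75% on the high side and the mitochondrial respiratory list 76.9% on the low side.

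Markers of cell types other than fibroblasts differed between the genotypes too. Of 12 mesothelial markers, 7 were lower in KO without overlap, against 9% of all tested genes, 5 were called lower, against 5.08%, and 0 higher, and the median log2 difference was -1.83. The list summed to 2814 to 2960 in KO libraries and to 3676 to 9355 in WT libraries, or to at most 4229 in WT without WT M. Wt1, a transcription factor of mesothelium, had 263, 259, 145 and 163 normalized counts in KO and 513, 503, 555 and 1529 in WT. Krt18 had 5.53 to 13.9 in KO and 46 to 264 in WT. Every mesothelial call was lost when single libraries were left out: 0 were called without KO M or any of the 4 NULL libraries and 1 without KO FL, while 9 members were called lower without WT FL or without WT M (2 higher in the second case). In bulk RNA, fewer cells of a type and less RNA per cell cannot be told apart, and the part of mesothelial cells in the results above was not tested.

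Of 14 endothelial markers 5 (35.7%) were called lower (Esam, Pecam1, Emcn, Cdh5 and Erg) and 1 (7.14%), the VEGF receptor Flt1, higher. Over all tested genes these shares were 5.08% and 6.86%. Pecam1 had 11.3 to 26.5 in KO and 38.5 to 88.8 in WT, and Flt1 had 2793 to 3144 in KO and 460 to 1329 in WT. The list sums overlapped, at 8916 to 9384 in KO and 4405 to 10454 in WT. The lower count was 3 or 4 without any 1 of the 6 libraries other than WT FL and WT M, 8 without WT FL and 9 without WT M. Of 13 pericyte markers, 1 (7.69%) was called in each direction, near the shares of all tested genes. Rgs5 was lower, with 78.5 to 129 in KO and 147 to 3820 in WT. The proteoglycan Cspg4 was higher, with 1733, 1774, 1949 and 2041 in KO and 911, 960, 463 and 422 in WT. The call of Rgs5 was lost without any 1 of the 6 libraries other than WT FL and WT M (adjusted p up to 0.0973).

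Of 19 macrophage markers, 2 (Cx3cr1 and Mertk) were called lower (10.5%, against 5.08% of all tested genes) and 0 higher. All defining genes overlapped. C1qa had 831 to 879 in KO and 864 to 1955 in WT, and Csf1r 771 to 1070 and 822 to 2059. Cd68 had 741 to 910 in KO and 517, 474, 653 and 1299 in WT. Adgre1 had 425 to 486 in KO and 359, 332, 392 and 483 in WT. At Cd68 and Adgre1 every KO library was above the WT libraries other than WT M. Without WT M 11 macrophage markers were called higher and 2 lower, and without WT FL 4 higher and 10 lower, so the direction of that list rests on which library is kept. T, B and natural killer cell markers, of which Cd3e had a mean below 1, and granulocyte markers were scarce, with 3 tested members each, of which Il7r was called higher. Of 7 tested alveolar type 2 markers, Sftpc, Sftpb and Slc34a2 were called lower on average although their groups overlapped. Sftpc, surfactant protein C, had 1.36, 0, 162 and 156 in KO libraries and 969, 765, 233 and 147 in WT libraries. It was near 0 in both KO NULL libraries, high in both WT NULL libraries, and alike in the IL-33 libraries of both genotypes.

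Other lists had few called members, or called members in both directions, but some leaned to 1 side without overlap. Of 11 small leucine-rich proteoglycans 4 (36.4%) were higher and 1 (9.09%) lower without overlap. The shares were 27.3% and 4.55% for lung fibroblast markers, 22.2% and 5.56% for Hox genes and 0% and 26.1% for p53 targets. All tested genes had 11.5% higher and 9% lower without overlap. Over all tested genes 6.86% were called higher and 5.08% lower. Fibroblast growth factor, PDGF and ErbB genes had 4 called higher (Btc, Fgf10, Ereg and Fgfr2) and 2 lower (Erbb4 and Pdgfc) of 24, mesenchymal transcription factors 4 and 2 of 23, and lung fibroblast markers 3 (Dpt, Npnt and Fgf10) and 2 (Inmt and Ces1d) of 22. Matrix proteases and inhibitors had 3 and 0 of 21, small leucine-rich proteoglycans 1 and 1 of 11, Hox genes 1 and 1 of 18, integrins 1 and 3 of 18, other chemokines 2 and 1 of 11, and cartilage and bone genes 3 and 2 of 14. Fatty acid genes had 2 and 0 of 21, p53 targets 0 and 3 of 23, imprinted growth genes 0 and 3 of 17, class II and dendritic cell genes 0 and 1 of 7, muscle genes 0 and 1 of 6, and Schwann cell and neuronal genes 2 and 0 of 8. Alveolar type 1 markers had 0 and 1 of 7 and airway markers 0 and 2 of 5, the second being Krt18 and Krt8, also on the mesothelial list. Most of these counts fell when 1 of the 6 libraries other than WT FL and WT M was left out: growth factor genes had 1 higher and 1 lower without any of these, matrix proteases, fatty acid genes and imprinted genes 0 in either direction, and mesenchymal transcription factors 0 or 1 higher. Integrins had 0 or 1 lower and p53 targets 0 or 1 lower. Without WT FL or without WT M most grew, up to 13 higher for growth factor genes without WT FL.

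Some of these gaps differed in width between the NULL and the IL-33 libraries. Each IL-33 virus had 1 library per genotype, so the virus and its library cannot be told apart. With NULL alone the model called 664 genes (4.28%; 2.58% higher and 1.7% lower), and with the IL-33 viruses 676 (4.35%; 2.76% higher and 1.6% lower). The genes called with both numbered 295, of which 294 had the same sign. The KO effect differed between the kinds of virus, by a test of that difference, at 20 genes (0.129%), more positive with IL-33 at 6 (0.0386%) and more negative at 14 (0.0902%). Of the 20, 11 were non-overlapping: Zbp1, Ly6e, Ly6a, Oas2, Ifi27l2a, Ifi204, Slfn5, H2-T23, C4b, Igfbp3 and Cspg4. The difference of Zbp1 was 3.57 on the log2 scale with NULL and 1.19 with IL-33 (adjusted p of the change 0.0124). Ly6e differed by 2.33 with NULL and by 0.82 with IL-33 (adjusted p = 0.0077).

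Ly6a, a surface protein also called Sca-1, had 884, 844, 514 and 630 in KO libraries and 93.4, 113, 393 and 422 in WT libraries, and Oas2 had 530, 526, 451 and 524 in KO and 71.4, 61.6, 333 and 299 in WT. In WT the IL-33 libraries were several-fold above the NULL libraries at these genes, while in KO they were level with or below them. Over the whole interferon list the median log2 difference was 1.19 with NULL and 0.51 with IL-33, over the GTPases 1.32 and 0.18, and over class I genes 0.90 and 0.32. The contractile list ran the other way, with 0.18 with NULL and 0.90 with IL-33. Igfbp3 and Cspg4 were also farther apart with IL-33. These calls of a changed effect were fragile: 0 genes were called without KO FL, KO M or WT NULL 2, 1 without WT NULL 1, 2 without KO NULL 1 and 3 without KO NULL 2, against 489 without WT M and 5604 without WT FL.

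**Figure D5:**
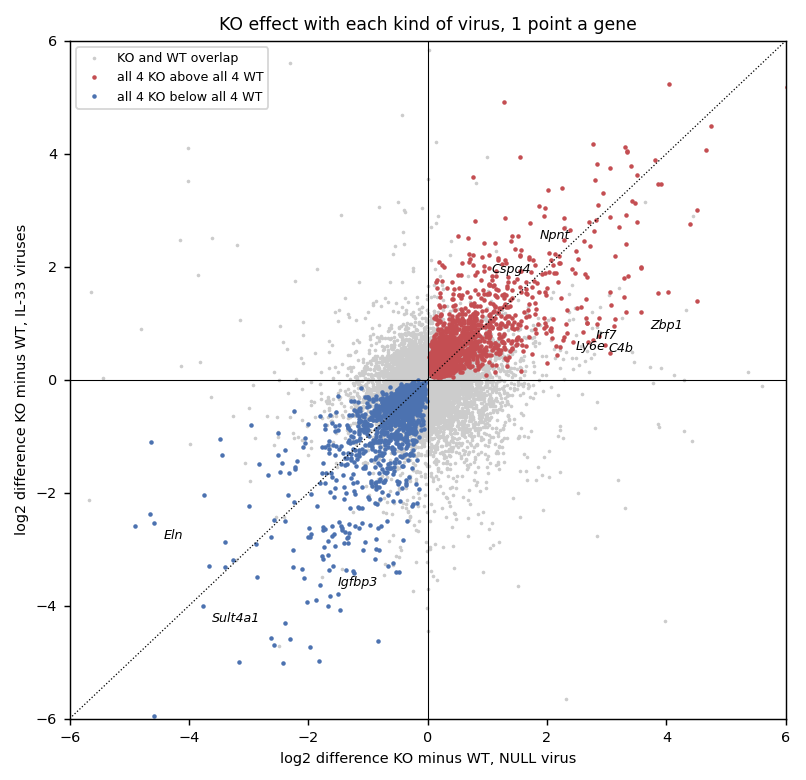
Log2 difference KO minus WT with the NULL virus (x axis) and with the IL-33 viruses (y axis), 1 point a gene, in red for genes higher in KO without overlap, in blue for genes lower without overlap and in grey for the rest, with 16 genes outside the axes. Zbp1, Ly6e, C4b and Irf7 lie right of the dotted line of equal difference, at larger differences with NULL than with IL-33, and Cspg4 lies above it.

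Of 9 tested genes of IL-33 signalling itself none was called, against 6.86% higher and 5.08% lower over all tested genes. Traf6 and Irak4 were lower without overlap (22.2%, against 9% of all tested genes) and 0 members were higher (against 11.5%). Traf6 had 543 to 661 in KO and 672 to 772 in WT (adjusted p = 0.1001). Without WT M 1 member was called higher and 2 lower, and without WT FL 2 and 3. Within 5, 10 and 20 Mb of Il1rl1 on chromosome 1, 17.6%, 25% and 18.6% of 68, 96 and 194 tested genes were non-overlapping, against 20.5% of all. Its neighbours Il1rl2, the receptor of IL-36, and Il1r1, the receptor of IL-1, were both higher in KO. Il1rl2 had 542, 556, 579 and 703 in KO libraries and 354, 366, 383 and 365 in WT libraries, and Il1r1 had 1701 to 1959 in KO and 1124 to 1504 in WT. The call of Il1r1 was lost without any 1 of the 6 libraries other than WT FL and WT M (adjusted p up to 0.1000). Among the autosomes and X the share without overlap ran from 18.5% on chromosome 9 to 23.6% on chromosome 12.

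The share without overlap also went with abundance and gene type. It was 13.1%, 19.6%, 21.2% and 28.2% in 4 equal groups of genes ordered from low to high mean, and was 21.6% for protein-coding genes, 17.8% for lincRNAs and 9.78% for processed pseudogenes. Precision also rises with abundance, so these shares do not compare the size of effects. Just inside the rule, Mtrr had a lowest KO value of 570.05 and a highest WT value of 570.02, and Ralgds a highest KO value of 448.39 and a lowest WT value of 448.45. Just outside it, Ube2v1 had a lowest KO value of 3846.1 and a highest WT value of 3847.2, and mt-Nd4 a highest KO value of 19630 and a lowest WT value of 19624.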

How the data were processed

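RNA was sequenced from mouse lung fibroblast libraries, 4 per genotype. The authors' deposited values were read as a signal: per the submitters' processing notes, Salmon estimated counts on GRCm38.p6 were scaled with DESeq2. Versions, strandedness and library preparation are not given in the sources used here. The 2 tables given are the same apart from 2 of 434648 cells, which differ by at most 6.5e-15 of their value. Raw depth is unknown; scaled totals were 23912931 to 29174452. Reads shared by near-identical or overlapping genes are split by estimate. Gene names and gene coordinates come from GENCODE M21, which held 15517 of the 15527 tested genes. Promoter windows and their coordinates follow RefSeq starts, which can differ from those of GENCODE.

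Genes with a mean of at least 10 were tested with limma 3.58.1 (R 4.3.3; trend, log2(value + 1), 4 groups of genotype by NULL or IL-33 virus, FL and M being the 2 samples of IL-33, KO effect averaged) at an adjusted p of 0.05. Fold changes on that scale understate those of low genes. The scripts were tested on simulated data. The genes and the 55 lists were chosen with earlier results of these data known. Named genes are Il1rl1, Il33, the 15 widest gaps and 5 largest differences of means in each direction (called, non-overlapping, mean of at least 50, predicted genes and clones left out), and up to 4 members of each list by gap. A further 21 genes, mainly with printed promoters, a changed effect or few called members, and the other members counted by name were chosen after their values were seen. Some genes that meet this rule are not reported here.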

Additional observations from a re-analysis of the deposited data

Results flagged for a closer look

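A library far from the other 3 of its genotype was sought among 40 named genes, in 80 groups of 4, with Dixon's ratio of the gap to the range and its 95% critical value. Past it were 13 groups, 3 in KO and 10 in WT. Chance puts about 1 in 20 groups of like samples past it, but each group here mixes the viruses and most of the genes were chosen by their gaps, so the number is not to be set against that share. The virus given to KO FL codes for IL-33 itself. In KO these were Il33 (0.925, KO FL high), Actg1 (0.989, KO FL high) and Upk1b (0.905, KO M low). In WT, WT M was the high library at Esam (0.840), Baiap2l1 (0.880), Syt10 (0.967), Krt18 (0.867), Upk1b (0.944), Gsta3 (0.866) and Tmem88 (0.890), and the low one at Slc9a9 (0.858) and App (0.847). WT FL was the high library at Zhx2 (0.909).

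The KO effect with IL-33 viruses minus that with NULL passed the test for Igfbp3 (-1.72 on the log2 scale), Zbp1 (-2.39), Ly6e (-1.52), C4b (-2.08), Cspg4 (1.26), Oas2 (-2.35), Ly6a (-2.58), Slfn5 (-1.70), Ifi204 (-0.98), Ifi27l2a (-1.53), H2-T23 (-0.88), Sftpc (8.92), Sftpb (7.17) and Slc34a2 (6.71). The values of the surfactant genes rest on KO NULL libraries at or near 0 and depend on the 1 added before the logarithm.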

How the results depend on the processing

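The count of 1853 genes was within 1.5 times of itself under other added values, filters, scalings, additive terms and genotype alone; it was 6332 with 6 groups, 5866 without WT M and KO M, and 552 to 6161 when 1 library was left out. The 664 genes with NULL became 5116 without WT M and KO M and 70 to 4998 with 1 library left out, and the 676 with IL-33 became 3045 and 20 to 6059. The 20 changed effects became 12 with 8 added, 374 without WT M and KO M and 0 to 5604 with 1 library left out; leaving out WT FL or WT M leaves 1 WT library with IL-33, assumed to vary like the others. Of the 3188 non-overlapping genes, 344 had a gap of at least 1.5-fold and 145 of at least 2-fold, and there were 6935 without WT M and KO M and 3549 to 6396 with 1 library left out. The labels do not say whether the numbers 1 and 2 pair the NULL libraries. Deviations of same-numbered NULL libraries had a correlation of 0.023 over 15527 genes, but 2 pairs cannot decide this. With a replicate block 959, 261, 157 and 1 genes were called for the averaged, NULL, IL-33 and changed effects. Of 180 called named genes, 85 stayed called under all 19 settings. The log2 difference of Il33, -0.13, ran from -1.06 to 0.81 with 1 library left out. It was 0.81 without KO M, 0.19 without WT FL and 0.50 without WT M and KO M. Without KO M the KO value with IL-33 rests on KO FL alone, which held 1080221 normalized counts against 81110 in KO M. Why the IL-33 libraries of a genotype differ in Il33 was not tested.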
